A study of Gossypium hirsutum with 2 samples.

Results

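RCA1, CBP2, CBP3 and HrBP1 are 4 cotton genes whose probe sets gave high signals on leaf arrays. They were chosen by name: every plant probe set that the platform annotation gives to a single gene with 1 of these aliases was taken. The rule found 4 probe sets from 4 genes, 1 probe set per gene, among 23977 plant probe sets, and all 4 lay above the median plant signal. The names were picked after the signals on these arrays were known, so the levels and differences below are a description and carry no test.

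Leaves came from Upland cotton (Gossypium hirsutum), cultivar Acala 1517-99, which the labels call drought tolerant. The drought group received no furrow irrigation and was sampled after 9 days without water, and the well-watered group was irrigated. In both groups the third topmost leaf was taken from field plants given as 9 weeks old, each replicate being 8 plants from 1 of 3 plots. The data hold 1 Affymetrix cotton array per group, and whether plots were pooled on an array is not stated in the sources used here. There is therefore no replicate error, and every difference describes these 2 arrays. Because leaf tissue was measured in bulk, fewer cells of a type and less RNA per cell cannot be told apart.

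Rubisco fixes carbon dioxide in the chloroplast, and it is easily blocked by sugar phosphates that bind its active site. Rubisco activase, encoded by RCA1, is the ATP-driven chaperone that removes them, and its transcript is known as abundant in green leaf. HrBP1 is the harpin-binding protein; harpins are elicitor proteins secreted by plant-pathogenic bacteria, and the Arabidopsis HrBP1 belongs to the plastid lipid-associated proteins (fibrillins), which sit on thylakoids and plastid lipid droplets. The gene table gives the aliases CBP2 and CBP3 without spelling them out, so no role is stated for that pair.

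All 4 probe sets had a higher signal on the drought array, by 1.11-fold to 1.32-fold. Values are the deposited MAS5 signals, which Affymetrix software computes on a linear scale as 1 intensity per probe set. None of the 4 reached 2-fold. Of the 11989 plant probe sets at or above the median signal, 1.82% were at least 2-fold higher and 2.56% at least 2-fold lower in drought leaves (4.38% in all), against 0.00% of the 200 brightest. A positive difference of any size was shared by 90.0% of the 200 brightest plant probe sets and by 49.6% of those at or above the median signal. The common direction of the 4 is thus that of most bright probe sets, and nothing particular to them is read from it.

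RCA1 (locus LOC107942112, probe set Ghi.1138.1.S1_at) had a signal of 20148 in drought leaves and 16617 in well-watered leaves. The ID ends in _at, which by the array's naming convention marks probes not known to match another transcript. The log2 difference, drought minus well-watered, was 0.28, or 1.21-fold. RCA1 stood at rank 5 of the 23977 plant probe sets on the drought array and at rank 10 on the well-watered array. Among the 324 probe sets with a single gene that has an alias, it was the brightest on both arrays.

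CBP2 (LOC107913771, Ghi.10635.1.S1_x_at) measured 18046 in drought leaves and 14718 in well-watered leaves, a log2 difference of 0.29 (1.23-fold). Its rank was 21 on the drought array and 36 on the well-watered array. The ending _x_at marks probes that can also hybridise to unrelated transcripts, so part of this signal may belong to other genes.

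CBP3 (LOC107958067, GhiAffx.8449.1.A1_s_at) measured 13957 in drought leaves and 12628 in well-watered leaves. Its log2 difference of 0.14 (1.11-fold) was the smallest of the 4. CBP3 was the only member that held a lower place on the drought array, at rank 79 against rank 70 on the well-watered array, although its signal was higher there. Its ID marks the orientation A, where the IDs of the other 3 mark S, and its ending _s_at marks probes shared by several similar transcripts.

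HrBP1 (LOC107929175, Ghi.142.1.S1_s_at) was dimmer than the others and differed most. It measured 5295 in drought leaves and 4004 in well-watered leaves, a log2 difference of 0.40 (1.32-fold). Like CBP3, HrBP1 has an ID ending in _s_at, which marks probes shared by several similar transcripts. Its rank was 337 on the drought array and 433 on the well-watered array, so HrBP1 was outside the 200 brightest on both. The description of the 4 as abundant therefore holds, on these ranks, for RCA1, CBP2 and CBP3, while HrBP1 lay within the brightest 1.41% of plant probe sets on the drought array and 1.81% on the well-watered array. Ranks depend on how strongly each probe set binds its target, so they do not order the transcripts by number.

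**Figure D1:**
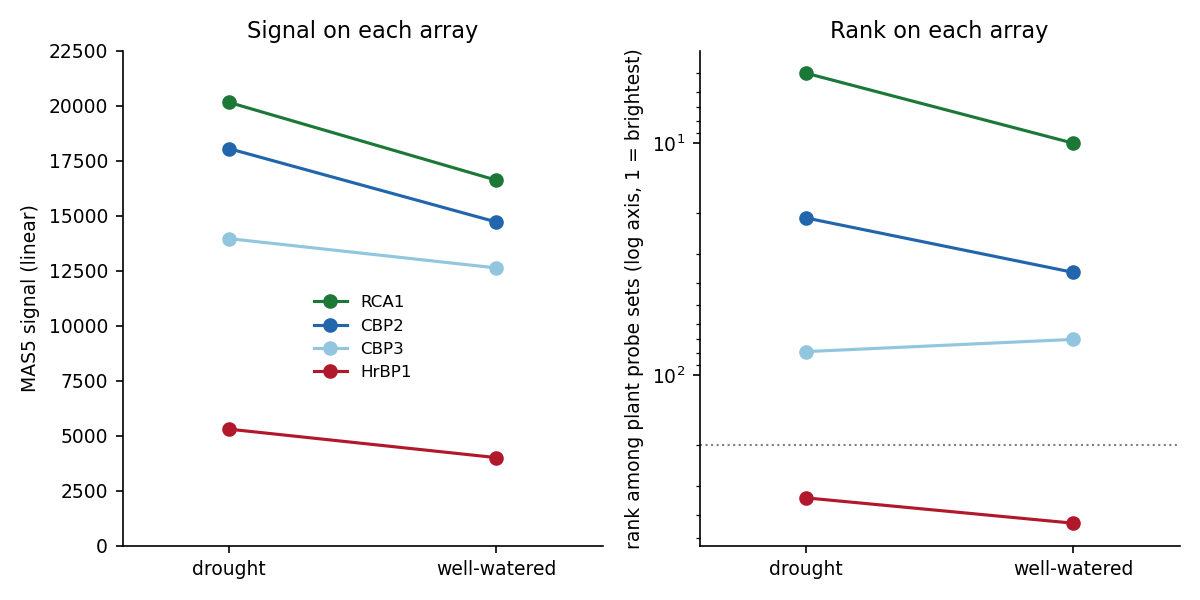
Linear MAS5 signal (left) and rank among 23977 plant probe sets (right, log axis, 1 is the brightest) of each gene on the drought and the well-watered array; each point is 1 array and the dotted line marks rank 200. All 4 signals are higher on the drought array, and CBP3 alone has a lower place there, at 79 against 70.

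The 200 plant probe sets of highest mean log2 signal were the reference for these levels. Their mean signals (geometric means of both arrays) ran from 7866 to 20437, and the probe set just outside had 7841. RCA1, CBP2 and CBP3 are among them, at places 9, 28 and 75 by mean signal, and HrBP1 is at place 381. The brightest plant signal was 22055 on the drought array and 18970 on the well-watered array. These 200 held 26.6% of the summed plant signal on the drought array and 24.5% on the well-watered array.

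Differences in the 200 had a median of 0.17, with 180 higher and 20 lower in drought leaves. Against that median RCA1 was higher by 0.11 and CBP2 by 0.12 on the log2 scale, CBP3 was at -0.03, and HrBP1, from outside the 200, was at 0.23. In the 200, 27 probe sets had a larger difference than RCA1, 23 a larger one than CBP2, 115 a larger one than CBP3 and 4 a larger one than HrBP1. RCA1 and CBP2 thus sat in the upper part of the distribution of bright probe sets, and CBP3 near its middle. RCA1 is also 1 of the 10 brightest, in which differences were 0.18 to 0.30, and 1 of these exceeded RCA1.

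The median difference depended on brightness. It was 0.21 in the 100 brightest, 0.17 in the 200 and 0.10 in the 500 brightest, of which 70.8% were higher in drought leaves. In the 300 that follow the 200 in brightness, a range chosen after the values were seen because HrBP1 lies in it, the median was 0.04 and the 95th percentile 0.37. HrBP1 at 0.40 was above that percentile, with 12 of these 300 probe sets showing a larger difference. The spread of differences also narrowed with brightness. Its SD over probe sets was 0.21 in these 300, 0.13 in the 200, 0.08 in the 100 and 0.04 in the 10 brightest. A difference of HrBP1 and one of RCA1, CBP2 or CBP3 are therefore not read against a like spread. Why the spread narrowed was not tested.

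**Figure D2:**
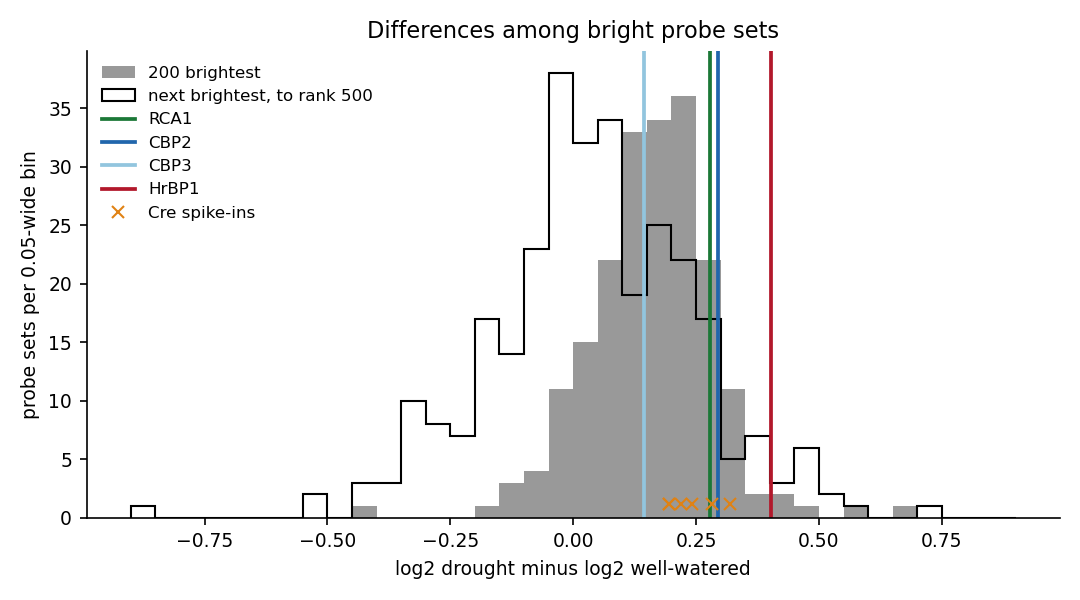
Number of probe sets per bin of log2 difference (drought minus well-watered) for the 200 brightest plant probe sets (grey) and for the 300 next brightest (outline); vertical lines are the 4 genes and crosses the 6 Cre spike-ins. CBP3 (0.14) is near the median of the 200 (0.17), RCA1 (0.28) and CBP2 (0.29) are in their upper part, and HrBP1 (0.40) is in the upper tail of both sets.

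Ranks, unlike signals, do not move when a whole array is scaled. Of the 200 brightest, 97 (48.5%) held a better place on the drought array and 99 a worse one. Places gained by some probe sets are lost by others, so a near balance follows largely from ranking itself. RCA1 and CBP2 were among the 97 and CBP3 among the 99. HrBP1, which is outside the 200, also held a better place on the drought array. The top 200 of each array taken apart shared 187 probe sets.

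Hybridisation spike-ins are bacterial and phage transcripts added to the labelled sample in set amounts, and they give a second scale. The 27 spike-in probe sets had a mean log2 difference of 0.24 (SD over probe sets 0.09), and all 27 were higher on the drought array. They read only bioB, bioC, bioD and cre, each by several probe sets, so they are not 27 independent readings. The 6 probe sets for the phage gene cre had mean signals of 14037 to 17950, near those of RCA1 and CBP2 (18298 and 16297), and their differences ran from 0.19 to 0.32. RCA1 and CBP2 lay inside that range, CBP3 below it and HrBP1 above it. Set against the spike-in mean, the difference was 0.03 for RCA1, 0.05 for CBP2, -0.10 for CBP3 and 0.16 for HrBP1, so CBP3 turned to lower in drought leaves on this scale. Of the 200 brightest, 21.0% exceeded the spike-in mean, and RCA1 and CBP2 were among those. HrBP1 exceeded each of the 27 spike-in differences, though the largest of them was also 0.40.

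**Figure D3:**
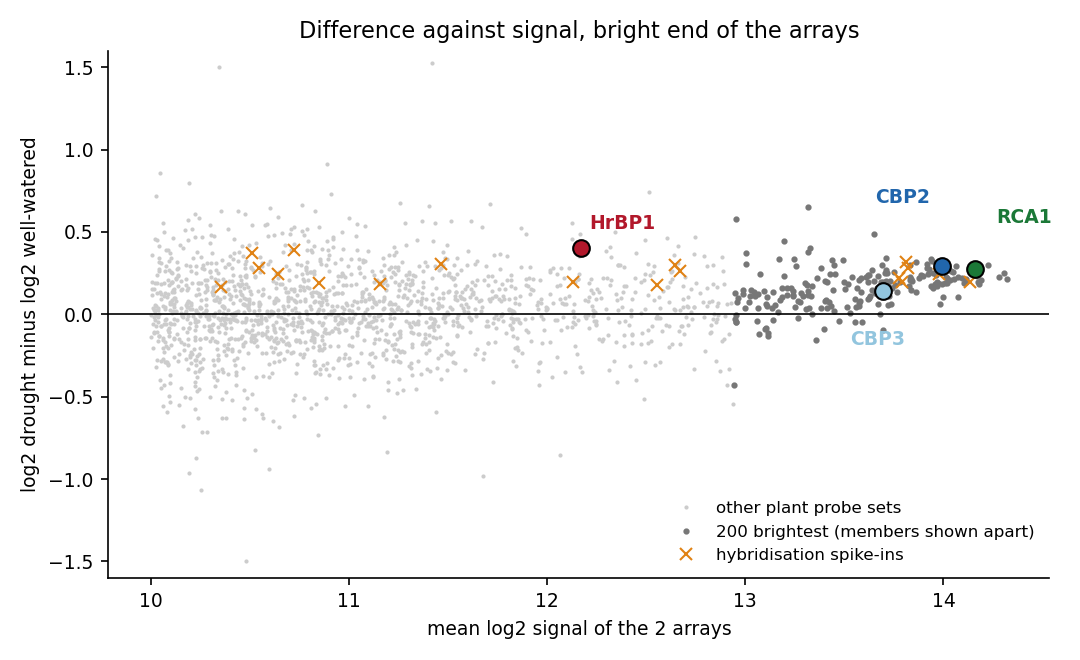
Log2 difference (drought minus well-watered) against mean log2 signal of both arrays for plant probe sets with a mean of 10 or more; dark points are the 200 brightest, crosses the spike-ins and large points the 4 genes. RCA1 and CBP2 lie among the bright spike-ins at about 14, CBP3 just below them, and HrBP1 above the spike-ins and most plant probe sets near 12.

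Only the scalings that depend on signal changed how the 4 genes stood to each other. Quantile normalization, which gives both arrays the same distribution of values, left 0.07 for RCA1, 0.07 for CBP2 and -0.04 for CBP3, but 0.36 for HrBP1. Centring by signal intensity gave 0.14 for RCA1, 0.16 for CBP2, 0.02 for CBP3 and 0.34 for HrBP1. HrBP1 had the largest and CBP3 the smallest difference of the 4 under both of these, as on the deposited scale. Median centring and the spike-ins shift every gene by 1 constant, and the pseudocount of 26.4 is small beside these signals, so those scales could not alter the order.

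**Figure D4:**
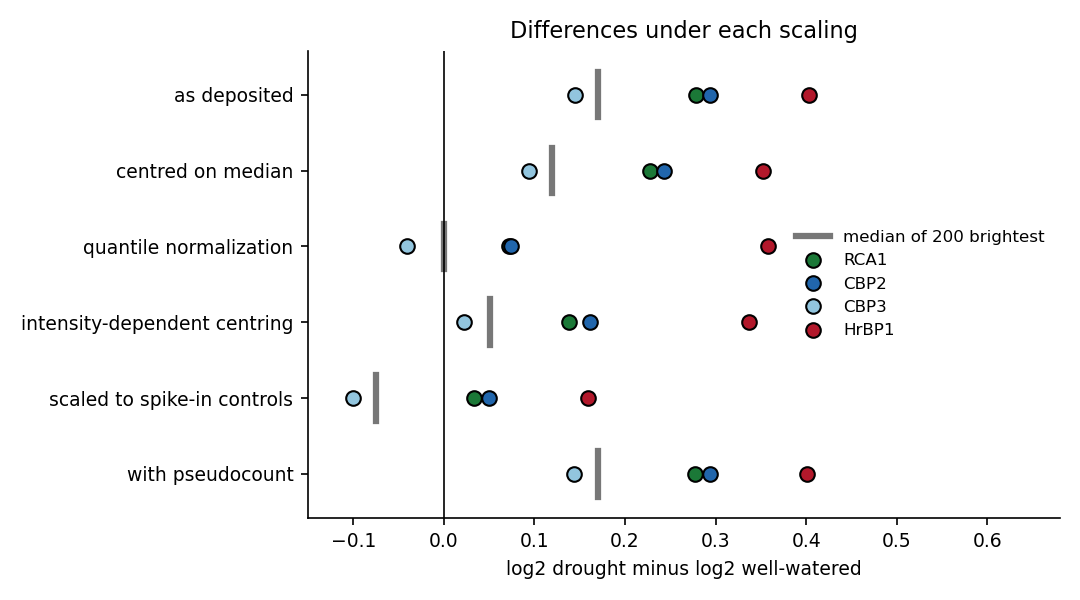
Log2 difference (drought minus well-watered) of each gene under the deposited scale and 5 alternatives; the grey bar is the median of the 200 brightest. CBP3 is negative under quantile normalization (-0.04) and against the spike-ins (-0.10). Median centring and the spike-ins move all 4 genes together.

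With 1 array per group, the spread between probe sets of the same transcript cluster is the nearest available measure of measurement spread. Both probe sets of a pair are read on the same 2 arrays. Variation between plants, plots and arrays is therefore left out of it. In 15 such pairs within the 500 brightest the SD per probe set was 0.18, which corresponds to 0.26 between the differences of 2 probe sets. Such pairs can detect different transcripts, so this is not noise alone. The gap between CBP2 and CBP3 was 0.15, below this spread. That between HrBP1 and CBP3, the widest among the 4, was 0.26 and about equal to it. The pairs come from the 500 brightest, where differences had an SD over probe sets of 0.19. It was 0.08 in the 100 brightest, which hold CBP2 and CBP3. The spreads are therefore not alike, and no gap is judged by this comparison. None of the 4 genes has another probe set in its cluster, and none is named in a probe set assigned to several genes, so no second reading of any of them was available from the annotation. For comparison, the bright locus LOC107887176 was read by a pair of probe sets that gave 0.11 and 0.20.

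Among the 9 aliased probe sets of the 200 brightest, the 6 that are not RCA1, CBP2 or CBP3 had differences of -0.09 to 0.22, 4 higher and 2 lower in drought leaves. The elongation factor 1-alpha gene EF1A1/EF1A4 (0.22) and the catalase gene CAT2 (0.21) exceeded CBP3 and were under RCA1 and CBP2. A lipid transfer protein gene with the aliases LTP1 and LTP3 (0.13), SAMDC (0.07), the copper/zinc superoxide dismutase gene CSD2a/CSD2b (-0.04) and MFS (-0.09) were under all 3. By distance over the log2 signals of both arrays, the aliased probe sets nearest to RCA1 were those of CBP2 (0.24), CAT2 (0.46) and CBP3 (0.66). Nearest to CBP2 were CAT2 (0.23), RCA1 (0.24) and CBP3 (0.43). Nearest to CBP3 were SAMDC, an alias used for S-adenosylmethionine decarboxylase of polyamine synthesis (0.18), CAT2 (0.21) and CBP2 (0.43). Nearest to HrBP1 were the histone gene HIS3 (0.18), the ascorbate peroxidase gene gAPX (0.26) and 14-3-3L, named for the 14-3-3 adaptor proteins (0.39). Their differences were 0.39 for HIS3, 0.21 for gAPX and 0.37 for 14-3-3L. With 2 arrays, this measure shows a like signal and a like difference and no more. Counting every plant probe set within a distance of 0.1, with or without a gene, RCA1 had 7 neighbours, CBP2 20, CBP3 21 and HrBP1 3.

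Other photosynthesis genes could hardly be set beside RCA1. The carbon fixation list matched 3 genes in the gene table, of which RCA1 alone has a probe set, and the list for light harvesting and photosystems matched 2 genes and 0 probe sets. The photorespiration list matched GOX, an alias used for glycolate oxidase among other enzymes, at 589 in drought leaves and 693 in well-watered leaves (log2 difference -0.23). For HrBP1, the list of plastid lipid-associated proteins added PAP1 (-1.21 and -1.04) and PAP10 (0.10), but PAP is also the usual alias of purple acid phosphatases, so these cannot be placed in its family. Matching used aliases alone, and 23234 plant probe sets have no gene in the annotation, so a list with 0 probe sets says nothing of its genes' levels.

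RCA1 is also the one leaf mesophyll marker that could be read. Its signal was 257 times the median plant signal on the drought array and 220 times on the well-watered array. RCA1 was itself chosen with its signal known, so this is no separate reading of mesophyll. Of the markers of other cell types, the trichome and fibre list had 6 probe sets, with a summed signal of 10972 in drought leaves and 10279 in well-watered leaves, mostly from a lipid transfer protein gene that is also on the epidermis list. Of its 5 probe sets at or above the median signal, 3 were higher and 2 lower in drought leaves. The trichome regulator gene GHTTG1 was at 447 in drought leaves and 341 in well-watered leaves, the fibre gene E6 was at 92.3 in drought leaves and 216 in well-watered leaves, and HOX3 was at 66.8 in drought leaves and 104 in well-watered leaves. The lists for guard cells, phloem companion cells and xylem had 0 probe sets. Ratios of 3-prime to 5-prime control signal, which follow RNA quality, were 4.09 for actin, 10.2 for ubq11 and 1.30 for ss1 on the drought array, against 14.1 for actin, 5.80 for ubq11 and 1.83 for ss1 on the well-watered array. The part of cell composition and RNA quality in the differences of the 4 genes was not tested.

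The authors' deposited table of differentially expressed probe sets holds 110 entries, beside 23977 plant probe sets on the array. None of the 4 genes is in it, and neither is any of the 200 brightest plant probe sets. With so few entries, absence from that table says nothing particular about the 4 genes.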

How the data were processed

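Intensity values were deposited by the authors as linear MAS5 signals, for which the submitters' processing notes name GCOS and MAS5, without versions. Both arrays had a mean of 250.09 after trimming 2% from each end, judged from the values. A smaller list deposited by the authors holds signals, detection calls and detection p-values per the file headers; here only its membership was used. The members and lists were chosen with earlier results of these data known.

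Control probe sets (155) were left out. Differences are log2 of the drought signal over the well-watered signal as deposited, with no pseudocount. Rank 1 is the highest signal. Probe sets at or above the median mean log2 signal (72.3) formed the background. Names came from the platform annotation joined to a gene table of Gossypium_hirsutum_v2.1 (697 probe sets with 1 gene, 46 with several), whose coordinates were not used. Named were all members, aliased genes of the 200 brightest, the 3 nearest aliased genes per member, and measurable list members. No test was run, with 1 array per group. Alternatives changed the scaling, the pseudocount (26.4), the probe sets ranked and the size of the bright reference. The calculation was tested on simulated data with the same noise at every brightness, unlike these arrays. That checks the code and not the accuracy of the differences. Python 3.11.15, statsmodels 0.14.6.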

Additional observations from a re-analysis of the deposited data

How the results depend on the processing

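No paired analysis was possible because there is 1 array per group. A shift was taken as small when under the SD of spike-in differences (0.09). That SD is over probe sets that read the same few transcripts repeatedly. The differences of RCA1, CBP2 and HrBP1 kept their sign in all 5 scaling and pseudocount alternatives, and that of CBP3 in 3 of 5. The pseudocount is too small beside these signals to change a sign, so that alternative was no check on it. Against the spike-ins, which lower every difference by 0.24, RCA1 was at 0.0335, CBP2 at 0.0496, CBP3 at -0.100, HrBP1 at 0.159, their median at 0.0416 and that of the 200 brightest at -0.0744. Quantile normalization gave 0.0716 for RCA1, 0.0745 for CBP2, -0.0408 for CBP3, 0.0731 for the median of the 4 and 0 for the 200 brightest. Intensity-dependent centring gave 0.139, 0.161 and 0.0224 for RCA1, CBP2 and CBP3, 0.150 for the median of the 4 and 0.0508 for the 200 brightest. The 300 next brightest, added after seeing the data, had a median of 0.0393 in place of 0.17.

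Ranking fewer probe sets raises places by construction. With probe sets ending in _x_at or _s_at left out, except the gene being ranked (CBP2, CBP3 and HrBP1 have such endings and were each put back for their own rank), places on the drought and the well-watered array were 2 and 4 for RCA1, 10 and 16 for CBP2, 34 and 28 for CBP3, and 136 and 179 for HrBP1. By their ID prefix, 163 of the 200 brightest plant probe sets are Gossypium hirsutum ones. With Gossypium hirsutum probe sets alone, RCA1 was at 3 on the drought array and 8 on the well-watered array. In the same order, CBP2 was at 17 and 30, CBP3 at 63 and 56, and HrBP1 at 277 and 358.

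Of the 11989 background probe sets, 218 (1.82%) were higher and 307 (2.56%) lower at 2-fold. These were 878 and 1086 at 1.5-fold, 31 and 51 at 3-fold, 103 and 624 against the spike-ins, and 110 and 178 with the pseudocount. Other filters count over other sets of probe sets. With no filter the counts were 3004 and 2838 of all 23977 plant probe sets. A filter at the 75th percentile left a smaller, brighter set, with counts of 24 and 43. On the deposited scale 0 of the 4 genes reached 1.5-fold. Most of the background did not reach it either, so nothing particular to the 4 is read from this.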

Other observations

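Among the 200 brightest plant probe sets, the largest difference belonged to LOC107939919 (Ghi.8608.1.S1_x_at), with a signal of 12804 in drought leaves and 8138 in well-watered leaves, a log2 difference of 0.65. The largest difference in the other direction was that of GhiAffx.9436.1.S1_at, which has no gene in the annotation, at 6781 in drought leaves and 9126 in well-watered leaves (-0.43). No explanation was tested for either. The annotation gives a single gene for 22 of the 200 and none for 174, so most of the brightest transcripts of these leaves carry no gene name here.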
